A study of Mus musculus with 6 samples.

Results

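The 40 mitotic genes described here are a fixed list of genes that act in G2 and mitosis, taken by symbol from a table of 23557 genes measured in CT26 tumors, and all 40 were found in it. The rule uses their symbols and no measured value. The tumors came from BALB/c mice, female and 7 weeks old by the study's methods, that received 500000 CT26 cells, a murine colorectal carcinoma line, under the skin. For 3 tumors (the H89 group) the kinase inhibitor H89 was given at 10 mg/kg into the peritoneum 2 times a week from day 6, and for 3 tumors (the NaCl group) the mice received NaCl by the same route. All 6 tumors were removed on day 14, frozen, and their RNA was sequenced in bulk. The comparison asks how the mitotic program of whole tumors differed between H89 and NaCl mice.

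A dividing cell builds its mitotic machinery anew in each cycle: transcripts of these genes are low after division, rise in G2 and are shut off again in G1. Cyclin B and CDK1 start mitosis, kinetochores and motor proteins attach chromosomes to the spindle, the checkpoint delays anaphase until every chromosome is attached, and the anaphase promoting complex then lets the chromosomes separate. The summed level of such genes is widely read as a measure of proliferation in tumors. H89 is known mainly as an inhibitor of protein kinase A.

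The deposited values were estimated counts, and the tumors held 27067349 to 31958793 of them, with 800 to 13221 counts for each mitotic gene in each tumor. Levels below are counts per 1000000 of the tumor's total (CPM). Fold changes are log2 values of H89 against NaCl from edgeR's quasi-likelihood test, which also scales each tumor by its TMM factor (0.956 to 0.991 in the NaCl tumors and 0.982 to 1.06 in the H89 tumors), so a gene at the same CPM in both groups gets a fold change slightly below 0. H89 tumor 3 stood apart within its group: over the genes tested, the mean chi-square per gene between its counts and those of H89 tumors 1 and 2 was 101 and 80.0, against 34.3 between tumors 1 and 2 and 25.5 to 40.2 between NaCl tumors. Against the NaCl tumors it was 70.3, 63.4 and 82.7 for H89 tumor 3, so its counts were nearer to those of NaCl tumors 1 and 2 than to those of the other H89 tumors. Without it, edgeR called 12 of all 13118 genes and 0 of the 40 after adjustment. At an unadjusted p under 0.05 it had 2630 of the 13118 and 4 of the 40, and the median log2 fold change of the 40 was 0.05. In these bulk tumors, a difference in the number of dividing cells and one in mitotic RNA per dividing cell cannot be told apart. Of the 8 epithelial markers checked for a colon carcinoma, Epcam, Vil1 and Cdx2 were near 0 (at most 1.16, 0.188 and 0.313 CPM), Krt8, Krt19 and Cdh1 were at most 2.14, 2.49 and 2.72 CPM, and only Krt18 and Krt20 were higher.

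No mitotic gene passed the test between H89 and NaCl tumors. With edgeR's quasi-likelihood test and Benjamini-Hochberg adjustment over 13118 genes, 0 of the 40 were called, against 1.59% of all genes tested. At an unadjusted p under 0.05, 1 of the 40, Cenpe, stood out, against 25.0% of all genes tested. DESeq2 and limma on log2(CPM + 0.5) also called 0 of the 40 after adjustment, against 7.47% and 1.30% of the genes each tested. At an unadjusted p under 0.05 they had 1 and 7 of the 40, against 17.7% and 24.4% of those genes. Voom with array weights called 1, again Cenpe, against 12.9% of all genes tested. The log2 fold changes ran from -0.20 for Spc25 to 0.29 for Cenpe, with a median of 0.01 over the 40 genes and 0.00 over all genes tested. All 40 lay within 0.3 of 0, where 69.4% of all genes tested lay, and 15 lay within 0.1. A log2 fold change beyond 1 in either direction was seen in 3.19% of all genes tested and in 0 of the 40.

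The intervals show how large a difference these tumors could still hide. The 95% interval of the fold change included 0 for 39 of the 40 genes and lay within -0.5 and 0.5 for 36. Its bounds reached -0.42 at the lowest and 0.59 at the highest. The median distance from the fold change to either bound was 0.23 for the mitotic genes and 0.30 over all genes tested. On the TMM scale 21 genes were above 0 and 19 below, near the 50.6% above 0 of all genes tested. On plain CPM (limma on log2(CPM + 0.5)), which placed the median of all genes tested at 0.07, the split was 27 and 13.

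**Figure D1:**
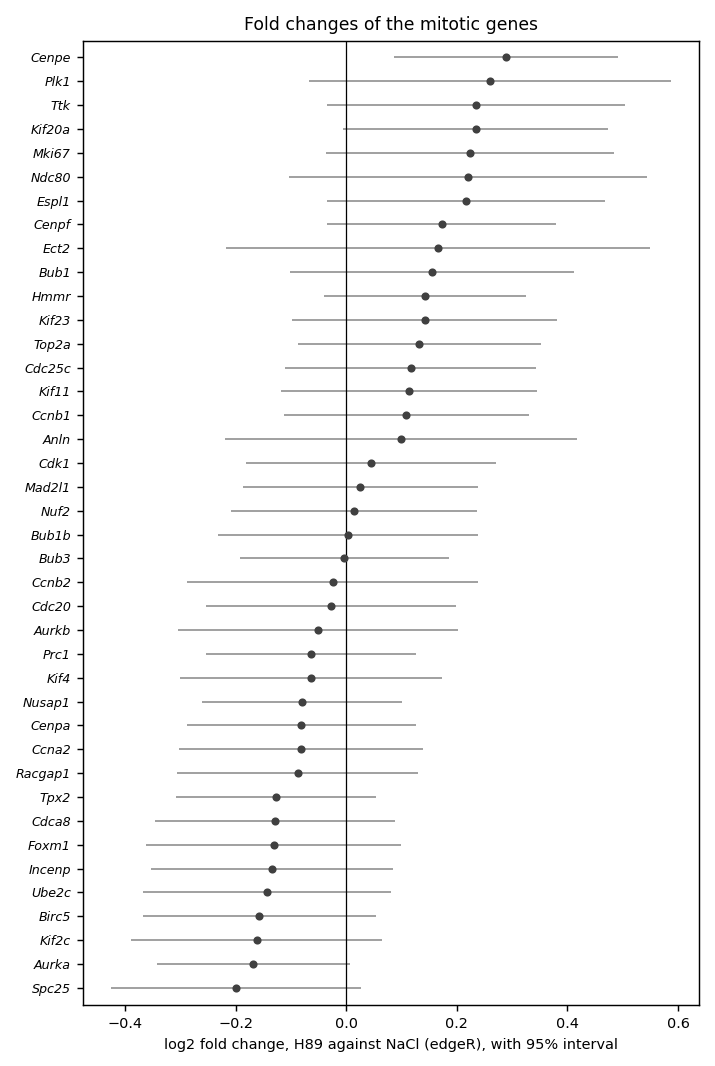
Log2 fold change of H89 against NaCl from edgeR for each of the 40 mitotic genes (points) with its 95% interval (lines), sorted by size, with 3 tumors per group. The values run from -0.20 to 0.29 and 39 of the 40 intervals include 0.

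The promoters show what these genes share in sequence, and 5 are printed because they carry the letters typical of mitotic promoters in different numbers. NF-Y binds CCAAT, and the cell cycle homology region (CHR, searched as TTTGAA or TTCGAA) is bound by MuvB complexes such as DREAM, which keep the program off in resting cells. Each line gives the 250 bases before the RefSeq start on GRCm38.p6, 5′ to 3′ in the sense of the gene, and capitals mark CCAAT or CHR letters on either strand. A CCAAT and a CHR match can share at most 1 base, and CCAAT matches on opposite strands can overlap further, as in Ube2c. The windows are chr10:69352913-69353162 (minus strand) for Cdk1, chr9:70421555-70421804 (minus) for Ccnb2, chr2:172370571-172370820 (minus) for Aurka, chr3:135212313-135212562 (plus) for Cenpe and chr15:102296043-102296292 (plus) for Espl1. In Cdk1, Cenpe and Espl1 the GENCODE start lies slightly upstream of the RefSeq start, so the last bases printed fall in the GENCODE first exon.
Cdk1: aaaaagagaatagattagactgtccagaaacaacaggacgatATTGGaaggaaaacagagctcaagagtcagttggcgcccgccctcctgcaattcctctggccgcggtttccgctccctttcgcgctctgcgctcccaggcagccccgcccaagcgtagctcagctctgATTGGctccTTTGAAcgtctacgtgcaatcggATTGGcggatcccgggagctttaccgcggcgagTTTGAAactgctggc
Ccnb2: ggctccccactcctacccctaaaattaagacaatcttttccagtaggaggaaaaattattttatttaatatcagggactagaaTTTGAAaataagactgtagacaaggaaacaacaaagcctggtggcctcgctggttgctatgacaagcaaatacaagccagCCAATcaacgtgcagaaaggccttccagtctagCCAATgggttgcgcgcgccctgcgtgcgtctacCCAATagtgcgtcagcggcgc
Aurka: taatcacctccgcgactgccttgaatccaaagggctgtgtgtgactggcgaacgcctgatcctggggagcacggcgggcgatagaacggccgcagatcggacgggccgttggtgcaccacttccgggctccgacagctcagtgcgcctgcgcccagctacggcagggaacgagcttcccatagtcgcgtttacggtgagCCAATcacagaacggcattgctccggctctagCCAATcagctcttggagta
Cenpe: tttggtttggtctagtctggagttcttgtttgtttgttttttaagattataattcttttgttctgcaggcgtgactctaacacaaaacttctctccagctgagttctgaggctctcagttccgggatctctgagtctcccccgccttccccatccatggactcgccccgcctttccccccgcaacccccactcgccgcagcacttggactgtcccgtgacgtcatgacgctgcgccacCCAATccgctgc
Espl1: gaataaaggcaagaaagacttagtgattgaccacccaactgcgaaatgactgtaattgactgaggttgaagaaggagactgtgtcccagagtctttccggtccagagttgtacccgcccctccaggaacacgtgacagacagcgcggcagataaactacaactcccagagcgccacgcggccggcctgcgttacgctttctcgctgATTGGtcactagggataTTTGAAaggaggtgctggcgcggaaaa

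RefSeq promoters were matched by symbol for 33 of the 40 genes, and Ccna2, Cdc25c, Foxm1, Aurkb, Incenp, Tpx2 and Kif20a were not matched. CCAAT on either strand was found in 26 of the 33 windows (78.8%), against 36.7% of the 10375 tested genes with a promoter and 34.5% of all 27025 promoters. At least 2 CCAAT were found in 54.5% of the mitotic windows and 13.5% of those of tested genes. CHR letters stood in 12 of 33 windows (36.4%), against 12.7% of tested genes, and both kinds together in 33.3% against 5.06%. The letters GCGGGAA, an E2F site, were in 0 of the 33 windows and in 6.90% of those of tested genes. These are matches of letters in a fixed window. Cdk1 held 3 CCAAT and 2 CHR matches, Ccnb2 held 3 and 1, and Espl1 held 1 of each. Aurka held 2 CCAAT matches and Cenpe 1, both with no CHR match. Top2a and Ube2c held the most CCAAT matches, 6 each, and in Ube2c a pair of them overlapped.

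Genes of entry control differed little. Cdk1, the kinase that drives entry into mitosis, was at 113, 134 and 123 CPM in the NaCl tumors and at 133, 143 and 124 CPM in the H89 tumors. Ccnb1, its cyclin partner, was at 86.0, 99.2 and 95.4 CPM in NaCl and at 98.2, 118 and 101 CPM in H89. Both ranges overlapped between groups, and the log2 fold changes were 0.04 (SE 0.10) for Cdk1 and 0.11 (SE 0.10) for Ccnb1. Foxm1, the transcription factor that turns on G2 and mitotic genes, had the highest mean CPM over the 6 tumors, at 386, 420 and 358 CPM in NaCl and 335, 410 and 371 CPM in H89. Its fold change was -0.13 (SE 0.10). In the H89 group alone the mean of Top2a, 385 CPM, was above that of Foxm1, 372 CPM. The exons of Foxm1 overlap those of Tex52 and Gm44596 on the same strand in GENCODE M21. Of the 6 entry genes, which also include the cyclins Ccna2 and Ccnb2 and the CDK1-activating phosphatase Cdc25c, 3 were above 0 and 3 below, with fold changes from -0.13 to 0.12. Cdc25c, which had the lowest mean CPM over the 6 tumors, had H89 tumors (33.1 to 38.5 CPM) above the NaCl tumors (28.5 to 32.7 CPM) with a fold change of 0.12 (SE 0.10).

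The proliferation markers had higher means in H89 tumors, but the ranges overlapped and neither gene was called. Mki67, which encodes the Ki-67 antigen that coats mitotic chromosomes, was at 204, 237 and 255 CPM in NaCl tumors and at 246, 319 and 287 CPM in H89 tumors. H89 tumor 1 lay inside the NaCl range and the other two lay above it. The fold change was 0.22 (SE 0.11, 95% interval -0.04 to 0.48), and the adjusted p was 0.259 (edgeR's quasi-likelihood test, Benjamini-Hochberg). Top2a, the topoisomerase that untangles sister chromatids, was at 312, 366 and 326 CPM in NaCl and at 339, 390 and 427 CPM in H89, with a fold change of 0.13 (SE 0.10). Here too the ranges overlapped.

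The mitotic kinases pointed in different directions. Plk1, which acts at centrosomes, kinetochores and in cytokinesis, was at 98.9, 102 and 80.8 CPM in NaCl tumors and at 122, 131 and 100 CPM in H89 tumors, a fold change of 0.26 (SE 0.14) whose interval, -0.07 to 0.59, held the highest bound of the list. Aurka, the centrosome kinase that matures the spindle poles, was at 73.7, 75.5 and 72.1 CPM in NaCl and at 68.7, 70.2 and 67.6 CPM in H89. It was the only mitotic gene with every H89 tumor below every NaCl tumor on plain CPM, a pattern shared by 10.0% of all genes tested. Its levels were the tightest among the H89 tumors, with a coefficient of variation of 1.91%. Its fold change was -0.17 (SE 0.08, 95% interval -0.34 to 0.01), with an adjusted p of 0.213 by edgeR's quasi-likelihood test. The checkpoint kinases Ttk and Bub1 had fold changes of 0.23 (SE 0.12) and 0.16 (SE 0.11), with overlapping groups in both.

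The 3 checkpoint genes that are not kinases had fold changes close to 0. Mad2l1, which blocks the anaphase promoting complex until kinetochores are attached, was at 87.6, 106 and 102 CPM in NaCl tumors and at 97.7, 113 and 105 CPM in H89 tumors. Bub3, which brings checkpoint proteins to kinetochores, was at 104, 108 and 99.6 CPM in NaCl and at 110, 111 and 105 CPM in H89. The fold changes were 0.03 (SE 0.09) for Mad2l1 and 0.00 (SE 0.08) for Bub3, and for Bub1b, the BubR1 protein of the checkpoint complex, 0.00 (SE 0.10). All 3 intervals lay within -0.5 and 0.5.

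Among the partners of the anaphase promoting complex, Ube2c, the ubiquitin-conjugating enzyme that serves it, was at 269, 295 and 264 CPM in NaCl tumors and at 265, 278 and 242 CPM in H89 tumors, with a fold change of -0.14 (SE 0.10). The exons of Ube2c overlap those of Tnnc2 on the other strand, and the counting is not stated to use strand. Cdc20, the activator of the complex in anaphase, had a fold change of -0.03 (SE 0.10). Espl1, the separase that cuts cohesin, was at 93.7, 97.5 and 80.7 CPM in NaCl and at 98.8, 124 and 109 CPM in H89. The H89 tumors were all above the NaCl tumors for Espl1, with a fold change of 0.22 (SE 0.11, 95% interval -0.04 to 0.47). The closest pair, NaCl tumor 2 and H89 tumor 1, differed little.

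All 4 genes of the chromosomal passenger complex, which corrects faulty attachments and later guides cytokinesis, had fold changes below 0, from -0.16 to -0.05, and none passed the test. Birc5 (survivin) was at 120, 134 and 116 CPM in NaCl tumors and at 116, 122 and 111 CPM in H89 tumors, a fold change of -0.16 (SE 0.09, 95% interval -0.37 to 0.05). Aurkb, the kinase of the complex, was at 116, 142 and 111 CPM in NaCl and at 119, 134 and 120 CPM in H89, with a fold change of -0.05 (SE 0.11). Both ranges overlapped on plain CPM. Aurkb had a positive fold change of 0.02 under limma on log2(CPM + 0.5), and with 1 tumor left out in edgeR it ran from -0.12 to 0.05, so its sign was not settled. The scaffold Incenp and the targeting subunit Cdca8 (borealin) had fold changes of -0.14 (SE 0.09) and -0.13 (SE 0.09).

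Centromere and kinetochore genes held the clearest difference of the list. Cenpe, a long kinesin that carries chromosomes to the middle of the spindle, was at 102, 110 and 107 CPM in the NaCl tumors and at 135, 146 and 128 CPM in the H89 tumors. The lowest H89 tumor lay well above the highest NaCl tumor. The means were 106 ± 3.66 CPM and 136 ± 9.43 CPM (SD, n = 3 each), and the log2 fold change was 0.29 (SE 0.09, 95% interval 0.09 to 0.49), or 22.2% higher on the TMM scale. By edgeR's quasi-likelihood test the unadjusted p was 0.011 and the Benjamini-Hochberg adjusted p was 0.106, so Cenpe was not called. The exact two-sided permutation test gave p = 0.1, the smallest that 3 against 3 tumors allow. Over the 16 alternatives the fold change of Cenpe ran from 0.24 to 0.36. Without H89 tumor 2 its unadjusted p by edgeR was 0.0512.

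Cenpf, a large protein of the outer kinetochore, was at 119, 124 and 121 CPM in NaCl tumors and at 127, 159 and 145 CPM in H89 tumors. Its H89 tumors were also all above the NaCl tumors, and they differed much more among themselves, with a coefficient of variation of 11.3% against 2.13% in NaCl. The fold change was 0.17 (SE 0.09). The NDC80 complex, which grips microtubules, was split, with fold changes of 0.22 (SE 0.14) for Ndc80, 0.01 (SE 0.10) for Nuf2 and -0.20 (SE 0.10) for Spc25. Cenpa, the histone variant that marks centromeres, had a fold change of -0.08 (SE 0.09).

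Of the spindle genes, Hmmr, which helps to focus spindle poles, was at 65.4, 71.6 and 66.5 CPM in NaCl tumors and at 73.6, 84.2 and 77.8 CPM in H89 tumors. Groups did not overlap, and the fold change was 0.14 (SE 0.08). Tpx2, which nucleates microtubules near chromosomes and activates Aurora A, was at 172, 186 and 179 CPM in NaCl and at 159, 182 and 175 CPM in H89, with a fold change of -0.13 (SE 0.08). The motors Kif11, Kif2c and Kif4 and the microtubule binder Nusap1 had fold changes from -0.16 to 0.11. On the TMM scale 4 of the 6 spindle genes were below 0, and Kif4 was above 0 on plain CPM.

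Among cytokinesis genes, Kif20a, a kinesin of the central spindle, was at 165, 196 and 176 CPM in NaCl tumors and at 202, 249 and 212 CPM in H89 tumors. Every H89 tumor was above every NaCl tumor, with a fold change of 0.23 (SE 0.10, 95% interval -0.01 to 0.47) and an adjusted p of 0.209 by edgeR's quasi-likelihood test. Its exons overlap those of Cdc23 on the other strand. Racgap1, which forms the centralspindlin complex with Kif23, was at 360, 378 and 333 CPM in NaCl and at 323, 387 and 349 CPM in H89, with a fold change of -0.09 (SE 0.09). The groups overlapped for Racgap1. Anln, an actin and septin scaffold, and Ect2, the activator of RhoA at the cleavage furrow, varied most among the H89 tumors, with coefficients of variation of 21.4% and 22.4%. In both, H89 tumor 1 was the lowest of its group, at 260 CPM for Anln and 59.4 CPM for Ect2, and the other two H89 tumors reached 369 to 400 CPM and 89.8 to 91.4 CPM.

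On plain CPM, 6 of the 40 mitotic genes (Cdc25c, Espl1, Cenpe, Cenpf, Hmmr and Kif20a) had all H89 tumors above all NaCl tumors, against 20.5% of all genes tested, and 1 (Aurka) had them all below. Together they were 7 of 40, against 30.5% of all genes tested in either direction. On TMM-scaled CPM there were 5 above (the same but Cdc25c), against 15.2%, and 4 below (Aurka, Birc5, Spc25 and Tpx2), against 15.5%, and in either direction 9 of 40, against 30.7%. In the exact permutation test, the same 7 of the 40 that did not overlap on plain CPM reached the smallest possible p of 0.1. Any gene without overlap reaches that p, so this repeats the 7 of 40, against 30.5% of all genes tested.

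**Figure D2:**
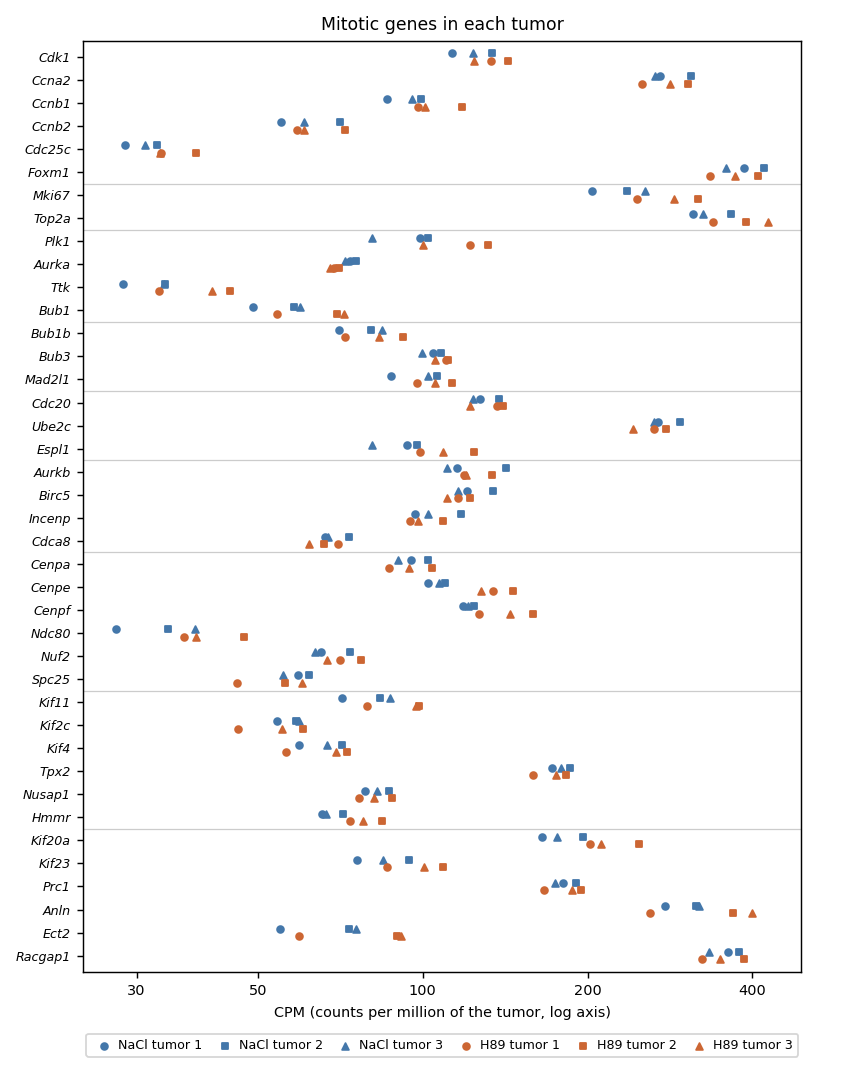
CPM of each of the 40 mitotic genes in the 3 NaCl tumors (blue) and 3 H89 tumors (orange) on a log axis, 1 symbol shape per tumor number, with lines between the 9 roles. The groups overlap for 33 genes, the H89 tumors lie above for 6 and below for Aurka.

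The range among tumors of a group was larger than the difference between the group means. The 40 genes took 0.494%, 0.554% and 0.509% of the counts in the NaCl tumors and 0.504%, 0.597% and 0.555% in the H89 tumors. The mean was 0.519% ± 0.0312 in NaCl and 0.552% ± 0.0467 in H89 (SD, n = 3 each), and the ranges overlapped. H89 tumor 2 was the highest of all 6 tumors for 26 of the 40 genes, NaCl tumor 2 for 10 and H89 tumor 3 for 4. NaCl tumor 1 was the lowest for 18 genes and H89 tumor 1 for 12. Within the H89 group, tumor 2 was the highest for 34 genes and tumor 1 the lowest for 29. A few tumors thus held the extremes for most of the genes.

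Across the 6 tumors the genes varied together. The median Pearson correlation between 2 of them, on log2(CPM + 0.5), was 0.54 over 780 pairs, and 87.9% of the pairs were above 0. These are descriptions over 6 tumors from 6 libraries, whose values share each tumor's total. Against the mean of the others, Kif23 was closest, at 0.97, and the median was 0.77. Aurka was at -0.22 and Cdca8 at -0.16, and Ube2c, Birc5 and Spc25 were at 0.18, 0.19 and 0.24. Compared with 46 genes of DNA replication and S phase, the mean log2 level of the mitotic genes was 0.68, 0.72 and 0.76 higher in NaCl tumors and 0.72, 0.84 and 0.82 higher in H89 tumors, and these ranges overlapped.

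**Figure D3:**
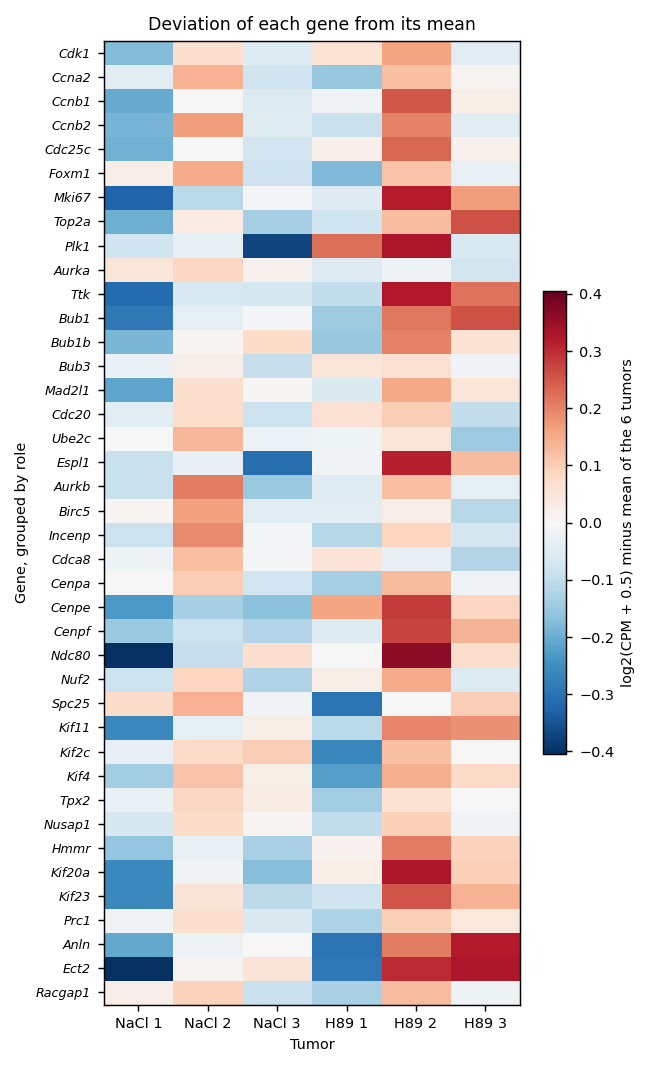
For each of the 40 mitotic genes, grouped by role, log2(CPM + 0.5) in each tumor minus the mean of the 6 tumors. H89 tumor 2 is above the mean for most genes and NaCl tumor 1 below it, and Aurka shows little spread.

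Levels between genes were compared per kilobase of exon (CPM per kb, all GENCODE M21 exons of a gene merged). Ube2c was the most abundant per kb, at 106 ± 6.38 CPM per kb in NaCl and 101 ± 6.93 in H89 tumors (SD, n = 3 each). Cdc20 (69.3 and 71.2), Ccna2 (69.0 and 68.5) and Foxm1 (67.4 and 64.6) followed, closer to one another than their spread between tumors. Their order depends on the length used. The merged exons of Ccna2 came to 4083 bp and its longest transcript to 2965 bp, against 1868 and 1793 bp for Cdc20. Ndc80 was the least abundant, at 5.14 ± 0.838 CPM per kb in NaCl and 6.28 ± 0.865 in H89 tumors. Cenpe lay in the lower middle, at 12.3 and 15.8 CPM per kb. The exons of 12 of the 40 genes overlap those of another gene, and 28 stand alone.

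Further mitotic genes also centred near 0. In 5 lists of other centromere, spindle, mitotic entry, condensin and anaphase promoting complex genes, 104 genes were tested, with 48 above 0 and 56 below and a median log2 fold change of -0.03. Of these 104, edgeR's quasi-likelihood test with Benjamini-Hochberg adjustment called 0 higher and 1 lower, against 0.861% and 0.724% of all genes tested. The gene called was Cdca5 (sororin), which protects the cohesion of sister chromatids and fell in H89 tumors. It was at 34.7, 35.9 and 33.2 CPM in NaCl and at 22.8, 26.2 and 27.9 CPM in H89, a log2 fold change of -0.50 (SE 0.09) with an adjusted p of 0.0443 by edgeR. The call held in 5 of the 10 alternatives that keep all tumors, and was lost, among others, with limma at each pseudocount (adjusted p 0.0728 to 0.0730) and with quantile normalization (0.0548).

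The other genes named in these lists did not pass the test, although of 10 alternatives that keep all tumors 4 called Anapc5, 2 each called Aspm, Ncaph2 and Anapc4, and 1 called Pmf1. Among the centromere genes Pmf1, a subunit of the MIS12 complex, had a log2 fold change of -0.36 (SE 0.14). Aspm, which holds spindle poles together, was at 35.9, 46.1 and 46.5 CPM in NaCl and at 48.6, 76.0 and 70.4 CPM in H89 (0.53, SE 0.16), and the cytokinesis kinesin Kif20b had 0.35 (SE 0.10). The groups overlapped for Pmf1 but not for Aspm and Kif20b. The condensin subunits Ncaph2 and Ncapg had log2 fold changes of -0.35 (SE 0.08) and 0.15 (SE 0.10). The anaphase promoting complex subunits Anapc5 and Anapc4 had -0.42 (SE 0.08) and 0.30 (SE 0.07). Anapc5 came nearest to the threshold, with an adjusted p of 0.0504 by edgeR's quasi-likelihood test.

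Among the regulators of the program listed here, CDK inhibitors and DREAM and MuvB genes, only Cdkn1a was called. Cdkn1a encodes p21, an inhibitor of cyclin-dependent kinases, and it fell in H89 tumors. It was at 333, 314 and 295 CPM in NaCl tumors and at 204, 176 and 224 CPM in H89 tumors. The groups were far apart, with a log2 fold change of -0.71 (SE 0.11, 95% interval -0.96 to -0.46) and an adjusted p of 0.0407 (edgeR's quasi-likelihood test, Benjamini-Hochberg). It was the only one called of 5 CDK inhibitors tested, against 1.59% of all genes tested, and 1 of the 5 was above 0 and 4 below. Of 13 genes of the DREAM and MuvB complexes, 0 were called by edgeR, and 6 were above 0 and 7 below. At an unadjusted p under 0.05 there were 4 of the 13, against 25.0% of all genes tested. There E2f4, an E2F subunit of DREAM, had a log2 fold change of -0.39 (SE 0.09) and Mybl2, the activator that takes its place on MuvB, -0.36 (SE 0.13). The pocket protein gene Rbl2 of DREAM went the other way, at 0.32 (SE 0.13).

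Among 46 genes of DNA replication and S phase, 1 was called higher and 1 lower by edgeR, against 0.861% and 0.724% of all genes tested. Of the 46, 16 were above 0 and 30 below, with a median log2 fold change of -0.08. Cdc7, the kinase that fires replication origins, rose, from 20.6, 24.2 and 21.7 CPM in NaCl tumors to 32.3, 38.0 and 36.3 CPM in H89 tumors (log2 fold change 0.61, SE 0.09, adjusted p 0.0407 by edgeR). Dut, which removes dUTP from the nucleotide pool, fell, from 89.9, 104 and 107 CPM to 71.7, 76.0 and 77.0 CPM (-0.49, SE 0.08, adjusted p 0.0415 by edgeR). With any 1 tumor left out, edgeR called none of Cdkn1a, Cdca5, Cdc7 and Dut, when it called 0 to 12 of all genes: the adjusted p then ran from 0.0663 to 0.142 for Cdkn1a, Cdc7 and Dut and from 0.0700 to 0.142 for Cdca5, while their fold changes kept their sign. Of the 10 alternatives that keep all tumors, 9 called Cdkn1a, 8 called Cdc7 and 5 called Dut.

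**Figure D4:**
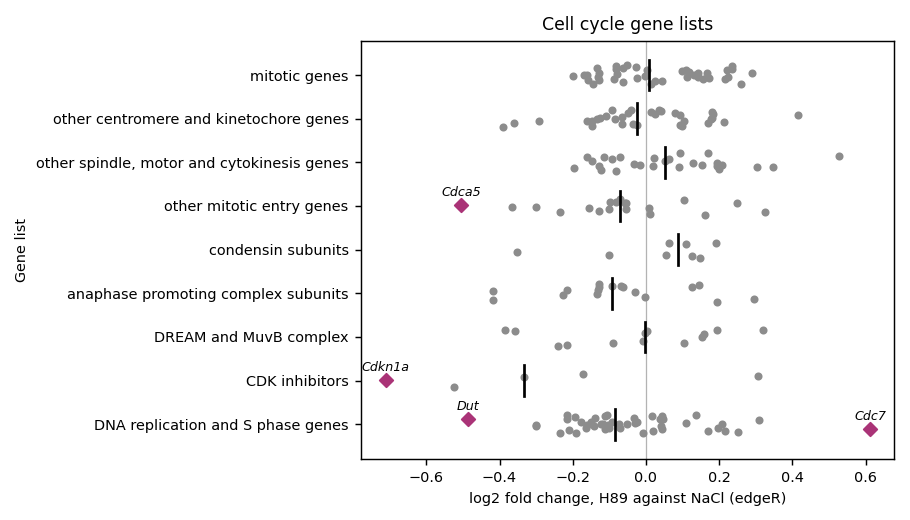
Log2 fold change of H89 against NaCl from edgeR for every tested gene of the 40 mitotic genes and of further cell cycle lists (points), with the median of each list (vertical bars) and the called genes named (diamonds). The mitotic genes lie within -0.20 and 0.29, whereas Cdkn1a (-0.71), Cdca5 (-0.50), Dut (-0.49) and Cdc7 (0.61) lie farther out.

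Longer transcripts tended to have higher fold changes, among the mitotic genes as among all genes. The Spearman correlation of the log2 fold change with the length of the longest GENCODE M21 transcript was 0.38 over the 40 mitotic genes, 0.41 over the 104 further mitotic genes and 0.21 over 12920 genes tested. It is across genes, which are not independent replicates, and all genes share the same 6 libraries. With the GC content of that transcript it was -0.34, -0.40 and -0.24. Of the 20 mitotic genes longer than their median of 3671 bp, 14 were above 0 (median log2 fold change 0.11), and of the 20 shorter ones 7 were (median -0.06). Over all genes tested, 3798 of the longer 6460 and 2723 of the shorter 6460 were above 0. Cenpe, Mki67 and Cenpf are among the longest of the list and Aurka and Spc25 among the shortest. Mad2l1, at 7557 bp with a log2 fold change of 0.03, and Plk1, at 2199 bp with 0.26, lay off this trend. The part of length and GC content in the fold changes was not tested.

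**Figure D5:**
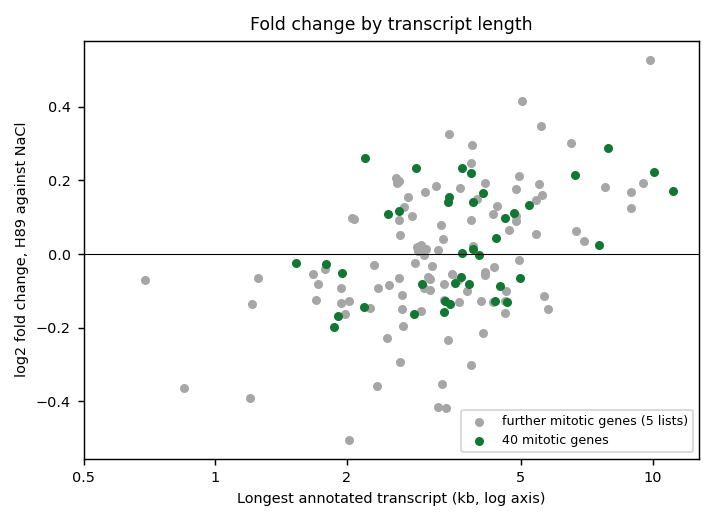
Log2 fold change of H89 against NaCl from edgeR (vertical axis) against the length of the longest annotated transcript in kb (log axis) for the 40 mitotic genes (green) and 104 further mitotic genes of 5 lists (grey). Fold changes tend to be higher for longer transcripts, with Spearman correlations of 0.38 and 0.41.

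Summed markers of cell types lay apart between the groups for some cell types and overlapped for others. The 8 epithelial markers, of which 5 passed the filter, summed to 109 to 122 CPM in NaCl and 80.5 to 95.7 CPM in H89 tumors, and the 7 fibroblast markers, all tested, to 2523 to 2674 CPM and 3057 to 3602 CPM, without overlap in either. Nearly all of the epithelial sum was Krt20 (94.0 to 98.5 CPM in NaCl and 65.1 to 83.8 CPM in H89 tumors) and Krt18 (12.7 to 23.1 CPM and 7.98 to 8.79 CPM), and of the 5 epithelial markers tested 3 had fold changes above 0 and 2 below. The T cell markers (7 of 7 tested) summed to 15.0 to 31.2 CPM in NaCl and 28.3 to 77.9 CPM in H89 tumors, and the macrophage markers (7 of 7) to 911 to 1423 CPM and 1149 to 1496 CPM. The 6 neutrophil markers, 1 of them at 0 in all tumors, summed to 15.4 to 20.1 CPM and 20.9 to 36.7 CPM. Of the 4 tested, 2 had fold changes above 0 and 2 (S100a8 and S100a9) below. Csf3r alone was at 7.37 to 10.3 CPM in NaCl and 15.0 to 24.2 CPM in H89 tumors. The 5 B cell markers summed to 1.34 to 1.83 CPM and 2.28 to 3.54 CPM. Endothelial markers (5 of 5 tested) summed to 83.7 to 142 CPM and 73.9 to 114 CPM, and erythroid markers (4 of 4) to 64.5 to 104 CPM and 21.9 to 235 CPM. Muscle markers summed to 0.932 to 2.24 CPM in NaCl tumors and reached 18.1 CPM in H89 tumor 1, mostly from Acta1 at 12.1 CPM, and keratinocyte markers reached 3.92 CPM. No single marker was called by edgeR after adjustment. The part of these cells in the levels of the mitotic genes was not tested.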

How the data were processed

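RNA of 6 CT26 tumors, 3 NaCl and 3 H89, was sequenced on the BGISEQ-500 platform. Per the submitters' processing notes the tools were kallisto and DESeq2 and the build was GRCm38; versions are not given in the sources used here. The authors deposited 1 table of estimated counts per gene: it is called TPM, but each tumor's values sum to its own total of 27067349 to 31958793, and 58.6% to 61.4% of its values above 0 lie within 0.01 of a whole number. The column record names 273 gene columns one by one, the rest of the 23557 were read in the same way, and 4612 genes were at 0 in all tumors. Groups and replicate numbers came from the labels, which name no batch. Per the legends of the study, each group was 3 mice. The tests thus set the difference between groups against the spread between tumors of different mice. That spread also holds differences in library preparation and counting error.

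Estimated counts were rounded and genes with a mean of at least 0.5 CPM (13118) entered the fit in edgeR 4.0.16 under R 4.3.3 (TMM, glmQLFit, glmQLFTest, Benjamini-Hochberg over all genes tested, threshold 0.05). The scripts were tested on simulated data. Alternatives used no filter, at least 5 CPM, median ratio factors, quantile normalization or log2(CPM + 0.5, 1 or 0.1) with limma 3.58.1, DESeq2 1.42.0, voom with array weights, a replicate block, and each tumor left out. Values in every tumor are given for Mki67, Top2a, Cdk1 and Ccnb1, and in each of 9 roles for the member with the smallest p and the one with the highest mean CPM; in further lists, for called genes or else the 2 with the smallest p, 1 of which is not reported here. Other members named were picked after their values were seen. The members, lists and rules were chosen with earlier results of these data known. Lengths, positions and exon overlaps are from GENCODE M21 by symbol and promoters from RefSeq. The list symbols Hjurp, Flg, Trac and Hbb-bs were not used here. Counting error was not separated from the spread between tumors.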

Additional observations from a re-analysis of the deposited data

How the results depend on the processing

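The median log2 fold change of the 40 mitotic genes stayed between -0.03 and 0.08 over the 16 alternatives. The number called after adjustment stayed at 0 higher except for 1 (Cenpe) under voom with array weights, and at 0 lower throughout. At an unadjusted p under 0.05, the 1 gene higher became 2 with at least 5 CPM, 6 with quantile normalization, 7 with limma on log2(CPM + 0.5, 1 or 0.1) and 8 with voom, and 0 to 7 with 1 tumor left out. The 0 lower became 1 with median ratio factors, 2 with voom, and 0 to 2 with 1 tumor left out. Without H89 tumor 1 the 2 directions together came to 9, without H89 tumor 3 to 4, and without NaCl tumor 2 or 3 to 2. Over all genes, the 208 called became 1406 with DESeq2 on 18828 genes, 1687 with voom, 311 with no filter, 81 with quantile normalization and 0 to 12 with 1 tumor left out; the cause was not tested.

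Deviations from the group means correlated at 0.16, 0.06 and -0.03 for same-numbered tumors, and from -0.37 to 0.35 for the other pairs. With 3 tumors per group, these values cannot show whether the replicate numbers pair the tumors. With the replicate block, 0 mitotic genes and 0 of all genes were called after adjustment, and the median of the mitotic genes was 0.01. At an unadjusted p under 0.05 with the block, 6 mitotic genes were higher and 1 lower, against 28.6% of all genes in either direction. Cdkn1a, Cdc7 and Dut (adjusted p 0.0640 each) and Cdca5 (0.0669) were not called with the block either.

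Some genes changed sign, many of them near 0 but also Foxm1, Racgap1 and Ccna2, at -0.13, -0.09 and -0.08 in the main fit. With DESeq2, the log2 fold change was -0.014 for Bub1b and -0.0031 for Nuf2. With no filter, the log2 fold change was -0.010 for Bub1b. With at least 5 CPM, the log2 fold change was 0.0060 for Ccnb2, 0.027 for Bub3 and 0.0024 for Cdc20. With quantile normalization, the log2 fold change was 0.021 for Ccna2, 0.0037 for Ccnb2, 0.0025 for Foxm1, 0.049 for Bub3, 0.030 for Cdc20, 0.0048 for Aurkb, 0.019 for Prc1 and 0.015 for Racgap1. With limma on log2(CPM + 0.5), log2(CPM + 1) or log2(CPM + 0.1) it was 0.045 or 0.044 for Ccnb2, 0.065 for Bub3, 0.038 for Cdc20, 0.023 for Aurkb, 0.0025 or 0.0026 for Kif4 and 0.0055 for Prc1. With 1 tumor left out it ran from -0.0049 to 0.12 for Cdk1, -0.12 to 0.065 for Ccnb2, -0.081 to 0.065 for Bub1b, -0.043 to 0.043 for Bub3, -0.040 to 0.071 for Mad2l1, -0.077 to 0.052 for Cdc20, -0.12 to 0.053 for Aurkb, -0.039 to 0.083 for Nuf2 and -0.14 to 0.014 for Kif4. None of these was called in either direction.

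With 3 tumors per group, the 95% intervals reached 0.23 to either side at the median, and that width differed between genes. After adjustment even the 0.29 of Cenpe was not called.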
